A study of Oryza sativa Japonica Group with 20 samples.

Results

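H3K27me3, the trimethylation of lysine 27 on histone H3, was compared between 2 libraries labelled control and 2 libraries labelled GA from wild-type rice seedlings (Oryza sativa, Japonica group). Seedlings of the GA label had been supplied for 6 h with gibberellin (GA) at 100 uM, taken up by the roots. All grew on nutrient medium in 14 h of light at 28 °C and 10 h of dark at 24 °C. The sources used here state neither the age of these seedlings nor where the replicates came from (separate plants, pools or a single chromatin preparation), so the spread between libraries may be technical. Both slr1 libraries of the series, from seedlings with a knockout of SLR1 that were 12 days old, are set beside some results. The peaks of the 4 lists were merged into 14737 regions. Merging all 6 H3K27me3 lists of the series gave 15519 regions, of which 14189 were marked in at least 1 of these 4 libraries. A region counted as marked in a library when that library's peaks covered 200 bp or more of it.

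H3K27me3 is written by Polycomb repressive complex 2 (PRC2), a histone methyltransferase complex, removed by Jumonji-type demethylases, and diluted when chromatin is copied. In plants it covers silent developmental genes, often as a domain over the whole transcribed region. GA is a growth hormone: its receptor GID1 binds it and then the DELLA protein, SLR1 in rice, which is degraded and stops restraining GA-responsive genes. The comparison asked which H3K27me3 regions differ after the hormone had acted for some hours.

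The identity of the libraries has a conflict that bears on every direction given here. The peaks in both files labelled GA carry the letters CK, the label used for control, in their names (K27me3-CK-1 and K27me3-CK-2), and those in both files labelled control carry 6h (K27me3-6h-1 and K27me3-6h-2). By the labels, less of the genome carried H3K27me3 peaks after GA. By the peak names the same values read the other way round, and more carried them after GA. Nothing in the sources used here tells which reading holds, so libraries are called control-labelled and GA-labelled throughout, and "lost" and "gained" describe the GA-labelled against the control-labelled libraries. Under the second reading each "lost" is a gain after GA and each "gained" a loss.

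The GA-labelled libraries had about as many peaks as the control-labelled ones, but shorter ones. The control-labelled libraries held 13427 and 13614 peaks and the GA-labelled libraries 13137 and 13640. The peaks covered 25.1 and 27.1 Mb in the control-labelled libraries and 22.4 and 24.1 Mb in the GA-labelled ones. Both GA-labelled values lay below both control-labelled values for covered length, while the peak numbers overlapped. The mean covered length was 26.1 ± 1.45 Mb and 23.3 ± 1.17 Mb (SD, n = 2 each), a difference of -2.82 Mb or -10.8%. The difference was -2.62 Mb between the libraries numbered 1 and -3.02 Mb between those numbered 2. An exact permutation test of 2 against 2 cannot give a 2-sided p below 0.33, and it gave 0.33 for covered length and 1 for the number of peaks, so this test cannot pass a threshold of 0.05 here, and the values are given as a description.

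Long peaks were fewer with the GA label. Peaks of 5 kb or more numbered 940 and 1083 in the control-labelled libraries and 777 and 864 in the GA-labelled ones. They covered 9.15 and 10.6 Mb against 7.25 and 8.13 Mb, a difference in means of -22.3%. Narrower peaks covered 15.9 and 16.5 Mb against 15.2 and 15.97 Mb, and there the labels overlapped. A long domain called in pieces counts among the narrower peaks, so this is a description of the called peaks. By the width of the merged regions, those of 10 kb or more held -0.347 Mb of the difference, those of 5 to 10 kb -0.509 Mb and those of 2 to 5 kb -0.931 Mb.

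**Figure D1:**
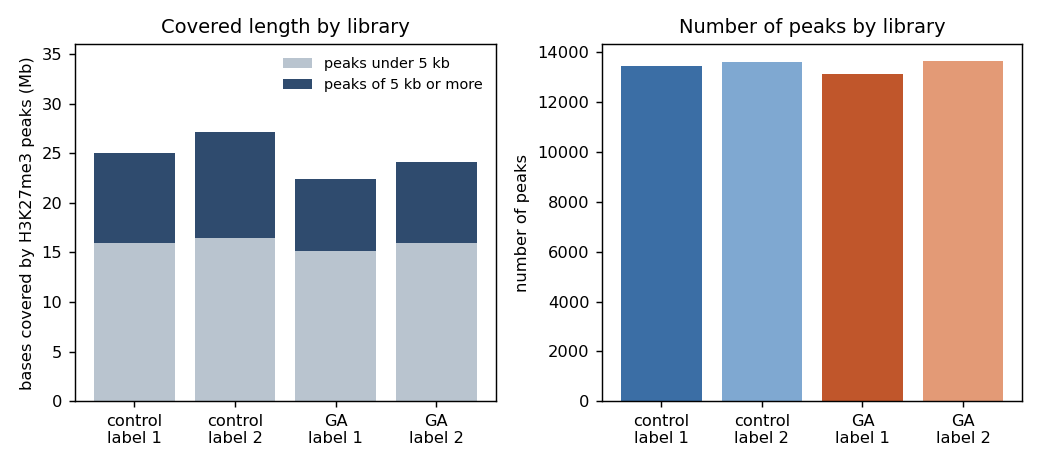
Left: bases covered by H3K27me3 peaks (Mb) in each library, stacked by peaks under 5 kb and peaks of 5 kb or more. Right: number of peaks per library. The dark part, peaks of 5 kb or more, is 9.15 and 10.6 Mb with the control label and 7.25 and 8.13 Mb with the GA label, while the number of peaks stays between 13137 and 13640.

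The enrichment of the peaks moved with the label too. The authors' fold enrichment per peak had a median of 3.15 and 3.18 in the control-labelled libraries and 2.92 and 3.11 in the GA-labelled ones, and the median −log10 q was 6.11 and 6.26 against 4.60 and 5.57. GA-labelled library 1 was the lowest in both. The part of these values in the differences below was not tested. The peak lists give no read numbers, so the depth is unknown.

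Most regions were marked in every library. Of the 14737 regions, 10550 (71.6%) were marked in all 4, and these shared regions held 24.9 of the 26.1 Mb of the control-labelled mean. A further 1107 regions were marked in 3 libraries, 1156 in 2 and 1924 in 1. The regions marked in 1 library were 370 for control-labelled library 1, 772 for control-labelled library 2, 251 for GA-labelled library 1 and 531 for GA-labelled library 2. In each label, library 2 covered more bases and had more regions of its own.

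Whole regions parted the labels in few cases, and more often in one direction. In all, 489 regions were marked in both control-labelled and neither GA-labelled library (lost, 3.32% of the regions), and 103 in both GA-labelled and neither control-labelled library (gained, 0.699%), together 4.02%. Many were close to a shared region: 84 of the lost (17.2%) and 17 of the gained (16.5%) lay within 1 kb of one. Within 5 kb lay 223 (45.6%) and 37 (35.9%). Of the other combinations of 2 libraries, 258 regions were marked in both libraries numbered 2, 127 in control-labelled 1 and GA-labelled 2, 115 in control-labelled 2 and GA-labelled 1, and 64 in both libraries numbered 1. The lost regions thus outnumbered each other pair, while the gained regions lay within the range of pairs that cross the labels.

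These counts depended on single libraries and on how much of each list was used. Lost and gained regions numbered 1295 and 203 without control-labelled library 1, 929 and 285 without control-labelled library 2, 781 and 643 without GA-labelled library 1, and 1065 and 369 without GA-labelled library 2, where a region has to agree in 1 library fewer. With each list cut, in order of −log10 p, to the 22.4 Mb of the shortest, the direction turned, to 22 lost and 933 gained. That setting kept 9813 and 8314 peaks of the control-labelled libraries but 13137 and 11134 of the GA-labelled ones, so it drops the weaker control-labelled peaks. With the same number of peaks in each list the counts were 453 and 123. With peaks up to 1 kb apart joined they were 387 and 82.

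**Figure D2:**
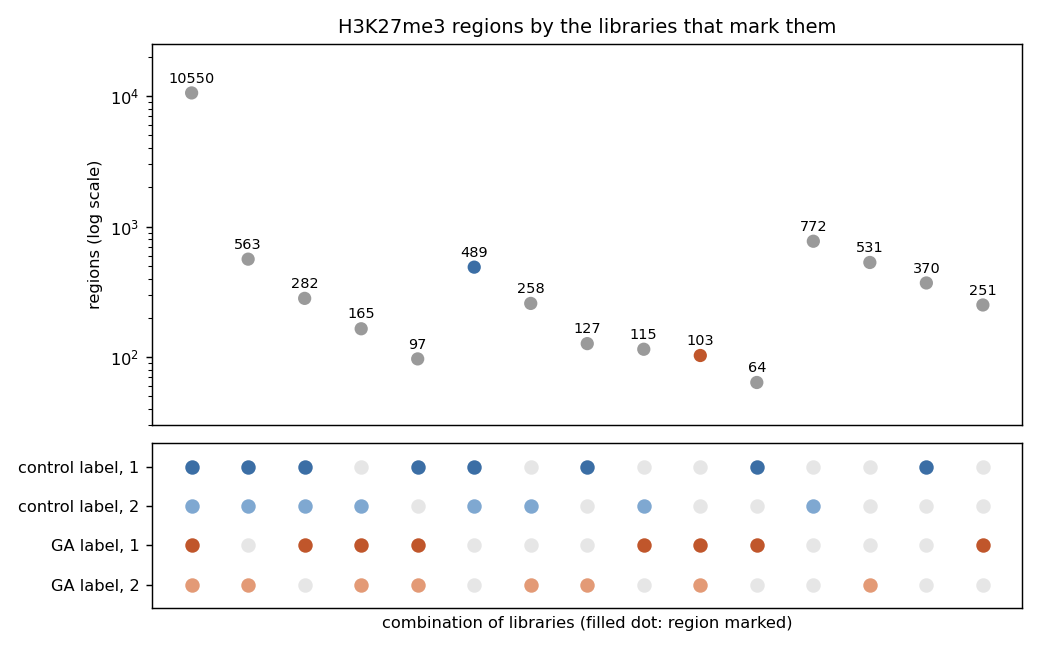
Number of merged regions (log scale) for each combination of libraries that mark them. Dots below name the libraries. The point at 489 is the regions marked only with the control label, and the point at 103 those marked only with the GA label.

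The lost and gained regions were short and weak. Their median width was 523 bp for the lost and 521 bp for the gained regions, against 1543 bp for shared regions. Shared regions join the peaks of 4 libraries and the others those of 2, which in itself widens the shared ones. The other combinations of 2 libraries had median widths from 511 to 569 bp, so this width is not particular to regions that part the labels. Strength is set below against whole lists, not against those combinations. None of the 489 or 103 held any base of a peak in the libraries of the other label. No listed peak was narrower than 214 bp, so the 200 bp rule fixed this in advance. In control-labelled library 1 the lost regions had a median fold enrichment of 2.22 against 3.15 for its whole list, and in library 2 of 2.27 against 3.18. In GA-labelled library 1 the gained regions had a median of 2.25 against 2.92, and in library 2 of 2.399 against 3.11. By −log10 q the lost regions stood at a median percentile of 12.0 and 14.8 in their own lists, and the gained regions at 11.4 and 12.9. Only 2 and 7 of the 489 lost regions, and 2 and 5 of the 103 gained ones, lay above the median of their list.

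The same held for single peaks, which were put in 4 equal classes by −log10 q within each list. Of the weakest class in control-labelled library 1, 18.5% had no overlapping peak in control-labelled library 2, 41.4% none in GA-labelled library 1 and 33.7% none in GA-labelled library 2. Of the strongest class, 1 peak had none in control-labelled library 2, and 0 had none in either GA-labelled library. GA-labelled library 2 showed that the labels did not order all pairs: of its weakest class, 40.5% had no partner in GA-labelled library 1, more than the 28.9% and 22.5% without a partner in control-labelled libraries 1 and 2. In the strongest class, each pair of the 4 lists left at most 1 peak without a partner.

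**Figure D3:**
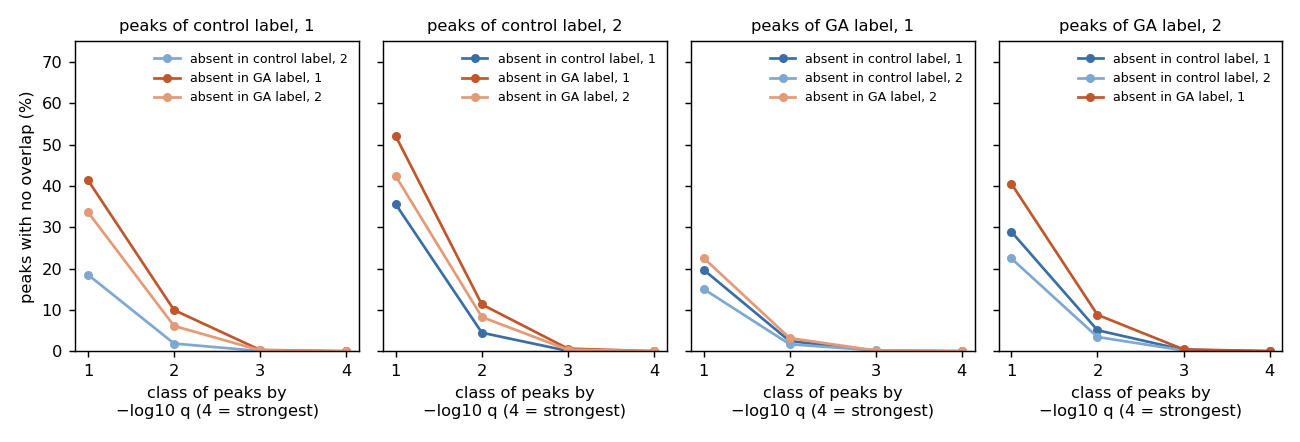
Share of peaks (%) with no overlapping peak in another library, by 4 equal classes of the named library's peaks in order of −log10 q. In every panel the share is highest in the weakest class, between 15.1% and 52.0%, and under 1% in the 2 strongest.

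The longest lost region lay at chr7:1950017-1952426. Its peaks covered 1975 and 2410 bp in the control-labelled libraries and 0 bp in both GA-labelled ones, with a fold enrichment of 2.32 and 2.56. It was at 0 bp in both slr1 libraries as well, and the nearest shared region was 639 bp away. The second, chr6:27907421-27910251, was covered over 1572 and 2321 bp with the control label and 0 bp with the GA label. It stood 110 bp from a shared domain that was itself shorter with the GA label (chr6:27895922-27907310, described below). The third, chr11:19319578-19321298, was covered over 1695 and 1643 bp with the control label, at 766 bp from a shared region. For these 3 the slr1 libraries gave 0 and 0 bp, 2192 and 1381 bp, and 732 and 1696 bp. In the 7 that follow by covered length, the mean of the control-labelled libraries ran from 1600.5 bp at chr3:22581738-22584361 to 1311.5 bp at chr12:1862391-1864730, and −log10 q from 1.34 to 3.41.

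The longest gained region lay at chr4:31915892-31917055 and was covered over 1007 and 1164 bp in the GA-labelled libraries and 0 bp in the control-labelled ones. It was followed by chr6:16108102-16109215 with 1114 and 1048 bp, and by chr8:7744243-7745435 with 1115 and 1008 bp. At chr2:28796292-28797515 the peaks covered 683 and 1224 bp with a −log10 q of 1.97 and 7.92. The 10 longest ended at chr7:16924600-16926019, with 282 and 1235 bp. In 5 of those 10 the 2 GA-labelled libraries differed more than 2-fold in covered length.

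Few of the lost and gained regions were strong. A −log10 q of at least 5 in both libraries of the label was reached by 2 of the 489 lost and 2 of the 103 gained regions. They are named here because of that value. The same cut is stricter for the GA-labelled lists, whose median −log10 q was 4.60 and 5.57 against 6.11 and 6.26. The lost ones were chr4:9184246-9184486, with a −log10 q of 9.71 and 16.6 over 225 and 241 bp, and chr12:494908-495296, with 6.19 and 6.28. The gained ones were chr1:20493136-20493367, with 5.35 and 6.23 over 220 and 221 bp, and chr6:15451892-15452138, with 7.87 and 11.1. They were between 232 and 389 bp wide. The nearest shared region lay 234405 bp from chr4:9184246-9184486 and 120489 bp from chr6:15451892-15452138.

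A lost region counts in the difference with its whole control-labelled length, since it is at 0 bp with the GA label. Shared regions held 24.9 of the 26.1 Mb of the control-labelled mean, and also most of the difference in covered length. They accounted for -2.31 of the -2.82 Mb (81.8%), lost regions for -0.243 Mb (8.62%), gained regions for 0.0482 Mb in the other direction, and the other combinations for -0.318 Mb. The 2 GA-labelled covered lengths lay below both control-labelled ones in 4355 of the 10550 shared regions (41.3%) and above both in 596 (5.65%). With a difference of at least 2-fold as well, 261 were narrower (2.47%) and 36 broader (0.341%). The median log2 ratio of mean covered length, GA-labelled over control-labelled, was -0.11, or -7.23%.

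The pairs of libraries show how this compares with the spread. The median log2 ratio was -0.10 for GA-labelled over control-labelled library 1 and -0.09 for library 2, with 72.8% and 70.8% of the shared regions below 1. Within a label it was 0.05 for control-labelled library 2 over 1 and 0.06 for GA-labelled library 2 over 1. For the nearest pair across the labels, GA-labelled library 2 over control-labelled library 1, it was -0.04, smaller than either difference within a label. For the farthest, GA-labelled library 1 over control-labelled library 2, it was -0.17. In 3 of the 4 pairs across the labels the difference was thus larger than within either label. With all lists cut to the same covered length the median was -0.09. That setting kept more GA-labelled than control-labelled peaks, so its direction is no separate support.

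**Figure D4:**
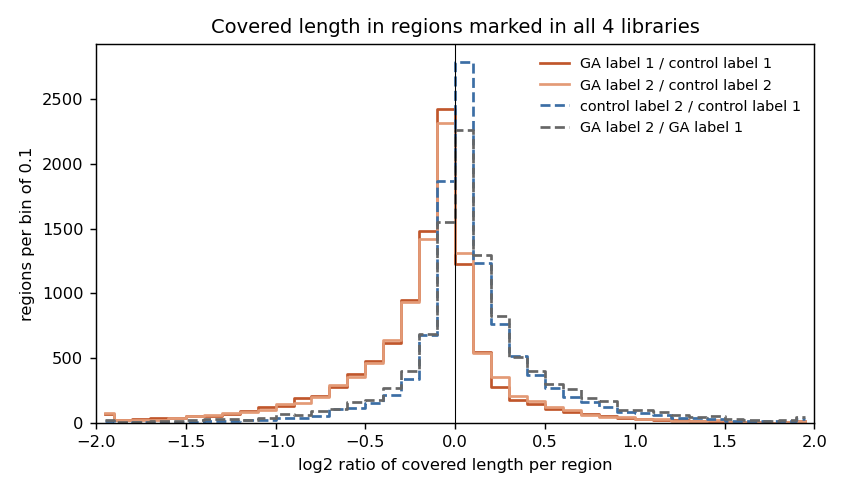
Distribution over the 10550 shared regions of the log2 ratio of covered length for 4 pairs of libraries (end bins hold all values beyond). Solid lines, GA-labelled over control-labelled, lie left of 0, with medians of -0.10 and -0.09. Dashed lines, replicates of 1 label, lie right of it, with medians of 0.05 and 0.06.

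Totals of bases do not depend on how peaks are joined, and 19.7 Mb were covered in all 4 libraries. A further 1.32 Mb were covered in both control-labelled and neither GA-labelled library, and 0.185 Mb in the reverse. Their place was read from the merged regions, so the split does depend on the joining. Of the 1.32 Mb, 51.8% lay at the ends of shared regions, outside the outermost GA-labelled peak, and 26.6% in gaps inside shared regions. Lost regions held 13.4%, and regions of other combinations 8.22%. The ends were found in 5957 shared regions and the gaps in 740. Of the 0.185 Mb, 57.1% lay at ends, in 1411 shared regions, and 15.6% in gaps, in 103 shared regions. Gained regions held 17.5%, and regions of other combinations 9.72%.

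Broad domains were present in every library, but in more pieces with the GA label. All 390 regions of 10 kb or more and all 816 of 5 to 10 kb were marked in the 4 libraries. Of the 2512 regions under 500 bp 13.1% were, with 225 lost and 48 gained. The width is that of the merged peaks of the same 4 lists. A region with peaks in more libraries is therefore wider in part by construction. The regions of 10 kb or more held 568 and 463 peaks with the control label and 813 and 697 with the GA label. One peak in both control-labelled and 2 or more in both GA-labelled libraries was found in 234 shared regions, and the reverse in 26. In regions of 10 kb or more the covered length was 6.06 Mb with the control label and 5.71 Mb with the GA label (-5.73%). In shared regions it was -8.54% under 500 bp, -8.66% from 500 bp to 1 kb and -9.19% from 1 to 2 kb. It was -11.9% from 2 to 5 kb and -9.90% from 5 to 10 kb, so it did not change steadily with width. The GA-labelled values lay below both control-labelled ones in 54.4% of the regions of 10 kb or more and in 35.7% of shared regions under 500 bp.

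The size of the difference was larger in weak regions, while the share of regions lower without overlap was larger in strong ones. Shared regions were ordered by the mean percentile, over the 4 lists, of their strongest peak. In the weakest of 4 equal classes the median log2 ratio was -0.21 and the summed covered length differed by -15.9%, and 180 regions were narrower and 27 broader by at least 2-fold. In the strongest class the median was -0.08 and the sum differed by -7.36%, with 10 narrower and 0 broader by at least 2-fold. The share of regions with both GA-labelled values below both control-labelled ones was 35.3% in the weakest class, 39.3% and 43.9% in the next, and 46.7% in the strongest. The share with both above moved the other way, from 8.42% in the weakest class to 3.26% in the strongest. The classes also differed in width, with a median of 1137 bp in the weakest and 2197.5 bp in the strongest. The part of width in these shares was not tested.

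The shared region whose covered length was lower by the most with the GA label lay at chr2:24822513-24840846. Its peaks covered 16805 and 17408 bp in the control-labelled libraries and 10198 and 11756 bp in the GA-labelled ones, as 1 and 2 peaks against 4 and 3. The slr1 libraries covered 18334 and 16227 bp of it, near the control-labelled values. At chr10:17883940-17898747 the covered length was 13143 and 14808 bp with the control label and 7902 and 8086 bp with the GA label, where each library had 5 peaks. The domain at chr6:27895922-27907310 was 1 peak of 10618 and 11389 bp in the control-labelled libraries and 5 and 4 peaks with 6515 and 6429 bp in sum in the GA-labelled ones. The mean covered length had a ratio of 0.588. The fold enrichment of the strongest peak was 3.58 and 3.798 against 3.52 and 3.68, but these values belong to unlike spans. With the control label that peak was the only one, and with the GA label it was 1 of 5 and 1 of 4 pieces. Other pieces in GA-labelled library 1 stood at 2.12 and 2.17.

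At chr7:1957044-1966691 the covered length was 7243 and 9213 bp with the control label and 2126 and 2479 bp with the GA label, a ratio of 0.280. This region, with a −log10 q from 2.39 to 3.30 at its strongest peak, was nearly bare in the slr1 libraries, at 0 and 204 bp. The region at chr8:826891-864743, a domain of 37853 bp, was covered over 37004 and 37818 bp against 32761 and 32573 bp. The 5 regions did not overlap between the labels, since that was part of how they were chosen.

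**Figure D5:**
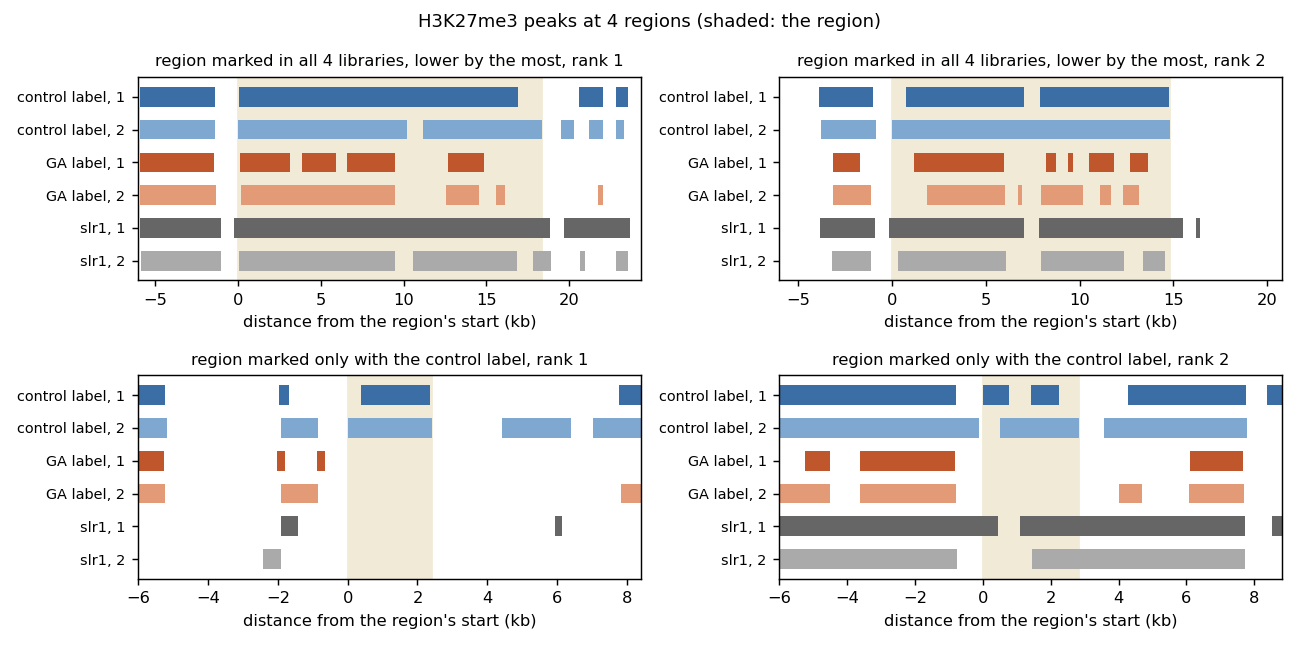
Peaks of the 4 compared libraries and of both slr1 libraries at 4 regions, by distance from the region's start (kb), with the region shaded. Top: the shared regions whose covered length was lower by the most with the GA label, where the control-labelled libraries have 1 or 2 peaks and the GA-labelled ones 3 to 5. Bottom: the longest and second longest lost regions, with no GA-labelled peak in the shading.

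Fewer regions were broader with the GA label, and by less. At chr2:20250803-20254666 the covered length was 908 and 645 bp with the control label and 2115 and 3212 bp with the GA label, a ratio of 3.43, and both slr1 libraries were at 0 bp. At chr10:20802030-20807431 it was 2498 and 2612 bp against 4174 and 4290 bp, with 295 and 0 bp in slr1. At chr4:33678941-33684507 it was 1963 and 4020 bp against 4149 and 4630 bp, and again 0 bp in both slr1 libraries. The domain at chr1:8022339-8031700 was covered over 6878 and 7925 bp with the control label and 8897 and 9267 bp with the GA label. At chr5:5588388-5595194 the values were 4341 and 4594 bp against 6773 and 5025 bp.

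The 5 broadest regions hardly differed. The broadest, chr7:2386433-2453974, was covered over 66491 and 67542 bp in the control-labelled libraries and 65253 and 66356 bp in the GA-labelled ones, a ratio of 0.982. The next, chr3:26974205-27034203, was covered over 58654 and 59529 bp against 57888 and 58722 bp. The ratio in the other 3 was 0.975 at chr11:25808366-25863270, 0.957 at chr2:17219554-17268056 and 0.979 at chr7:1886176-1932501. The fold enrichment of the strongest peak at the broadest was lower with the GA label, as in the lists as a whole: 5.22 and 5.86 against 4.41 and 4.86.

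The difference was spread along the genome. Covered length was lower with the GA label on each of the 12 chromosomes, without overlap between the labels, from -9.63% on chromosome 4 to -12.2% on chromosome 11. On chromosome 1 it was 3.20 and 3.41 Mb against 2.82 and 3.03 Mb. Of 379 windows of 1 Mb, 278 (73.4%) were lower without overlap and 1 (0.264%) was higher. The largest difference was at chr6:27000001-28000000, with 191.8 and 205.5 kb against 163.6 and 166.2 kb. That window held 8 lost regions, the most of any, and 0 gained ones. It was followed by chr5:6000001-7000000, with a mean of 200.9 against 171.7 kb, and chr11:19000001-20000000, with 122.1 against 93.5 kb, which is -23.4%. The window that was higher, chr11:12000001-13000000, held 2.41 and 2.54 kb against 3.07 and 2.92 kb.

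Lost and gained regions were set beside the slr1 libraries, whose own comparison would use the same control-labelled libraries. Of the 489 lost regions, 55.0% were marked in slr1 library 1 and 21.5% in slr1 library 2. Of the 103 gained ones, 44.7% and 21.4% were, and of all 14737 regions 80.6% and 68.9%. Slr1 library 2 had the shorter list, with 11699 peaks over 21.3 Mb against 13598 over 27.8 Mb in slr1 library 1. Weak peaks often lacked a partner there. Of the weakest class in control-labelled library 1, 32.65% had none in slr1 library 1 and 58.8% none in slr1 library 2. The part of peak strength in the shares given here was not tested. Neither slr1 library marked 42.5% of the lost regions, 53.4% of the gained ones and 17.8% of all. Of the 10550 shared regions 3.92% were unmarked in both slr1 libraries. Of the 261 shared regions at least 2-fold narrower with the GA label 4.98% were, and of the 36 at least 2-fold broader 22.2%, which is 8 regions.

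The base sets were only slightly more alike within a label than across. The Jaccard index, the bases shared by 2 libraries over the bases covered by either, was 0.825 for the control-labelled pair and 0.787 for the GA-labelled pair. Across the labels it was 0.791, 0.794, 0.764 and 0.782, so 2 of these 4 pairs were more alike than the GA-labelled pair. No gene could be named for a region: the peak lists carry coordinates without a stated genome build, and the RNA tables carry locus identifiers without coordinates.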

How the data were processed

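H3K27me3 chromatin immunoprecipitation libraries (antibody from Diagenode) were read as deposited broad peak lists, 1 per library and not pooled. Trim Galore 0.6.6, Bowtie2 2.4.4, deepTools 3.5.0 and MACS2 2.2.7.1 are named in the submitters' processing notes. The peak names and the lowest deposited −log10 q values, near 1, give a q threshold of 0.1. The deposited values per peak are the authors' fold enrichment (a ratio) and −log10 of p and q, used only to describe, rank or filter peaks. The sources used here state neither a genome build nor which control was used for calling. Coordinates are the files' own, counted from 1.

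Overlapping peaks were merged (Python 3.11.15, pandas 2.3.3, numpy 2.4.6), and the code was checked on made-up peak lists. No narrower peak than 214 bp was listed, so the 200 bp minimum removed none. Regions were named by covered length: the 10 longest lost and gained, the 5 largest falls and rises among shared regions without overlap, and the 5 broadest. Members and rules were chosen with earlier results of these data known. The exact permutation test used for values per library cannot go below 0.33 with 2 libraries per label, no model was fitted, and values are descriptive. Alternatives were a stricter q, equal list sizes, other marking and joining rules, and each library left out. RNA tables and inputs were not used here.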

Additional observations from a re-analysis of the deposited data

How the results depend on the processing

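The median log2 ratio of shared regions stayed below 0 under every alternative run. Of these, marking at 1 bp could change nothing, since no listed peak was narrower than 214 bp. Equal covered length is no separate support for the ratio's direction, as said above. The lower covered length and the excess of lost over gained regions kept their direction under every alternative run except equal covered length. By construction, equal covered length left a difference of 0.00103 Mb. Under that setting there were 22 lost and 933 gained regions, 3072.0 more peaks with the GA label, 63.7% of regions in all libraries, 0.779 Mb only control-labelled and 0.774 Mb only GA-labelled, while the median log2 ratio was -0.0928. Peaks with a −log10 q of 3 or more gave a peak number difference of -625, 46 gained regions, 0.105 Mb only GA-labelled and a median log2 ratio of -0.0953. The percentage of regions marked in all 4 was 73.1% with equal peak numbers, 70.6% with 500 bp needed to mark a region (median log2 ratio -0.0936), 75.4% with peaks up to 1 kb apart joined and 72.9% with 6 lists joined.

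Leaving out 1 library gave a covered length difference of -3.85 to -1.79 Mb, a peak number difference of -383.5 to 119.5 (119.5 without GA-labelled library 1), 781 to 1295 lost and 203 to 643 gained regions, 74.3% to 76.5% marked in all, a median log2 ratio of -0.147 to -0.0677, 2.16 to 3.31 Mb only control-labelled and 0.371 to 1.15 Mb only GA-labelled. The Jaccard gap (same label minus across, 0.0233) was -0.00547 to 0.0475, below 0 without control-labelled library 2. With the replicate number as a block, the covered length difference was -2.62 Mb within number 1 and -3.02 Mb within number 2, and an exact 2-sided permutation test of 2 pairs, added after seeing the data, gave p = 0.5, the smallest it allows. No label says that a number marks a shared batch, and the counts of regions and bases come from no test. Depth is unknown, so absence of a weak peak is not absence of the mark.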
